A study of Saccharomyces cerevisiae x Saccharomyces paradoxus and Saccharomyces cerevisiae and Saccharomyces paradoxus with 40 samples.

Results

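Poly-A RNA counted over replication origins, long terminal repeats, centromeres and telomeres was followed through yeast meiosis. The members are the 246 of 3463 rows of the raw count table whose name starts with ARS, CEN or TEL, or is the name of a delta, sigma, tau or omega element. They are 189 origins (ARS), 47 long terminal repeats (38 delta, 2 sigma, 5 tau and 2 omega), 2 centromeres and 8 telomeric repeats. The choice used names only and no measured value. The study followed S. cerevisiae, S. paradoxus and their hybrid from entry into sporulation medium to the end of meiosis II. There are 40 libraries. Each parental strain has 3 at each stage and the hybrid has 4. The stages are T0 (entry into the medium, the control), M1 (start of meiosis I), M1M2 (end of meiosis I and start of meiosis II) and M2 (end of meiosis II). All groups share growth in rich YPD medium followed by transfer to potassium acetate medium. The hybrid was made in both cross directions, 2 libraries of each at a stage, and the directions were not compared here. Per the series' description the parental libraries are biological replicates. Strain names are not given in the sources used here.

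An origin of replication in budding yeast is a short AT-rich stretch of DNA, mostly between genes, that carries an ARS consensus sequence bound by the origin recognition complex. The complex loads the replicative helicase on it before S phase, and premeiotic S phase uses it too. The long terminal repeats are remnants of the Ty retrotransposons. Delta elements come from Ty1 and Ty2, sigma from Ty3 and tau from Ty4, and most stand alone in the genome after recombination has removed the body of the element. Omega elements come from Ty5. A point centromere is a short sequence that carries a single kinetochore. Its CDEI element is bound by Cbf1, its CDEIII element by the CBF3 complex, and the AT-rich CDEII element between them is wrapped by the centromeric nucleosome. The telomeric rows are named for parts of the X element that adjoins each telomere, its core (XC) and its combinatorial repeat (XR). None of these features is a gene, so a count there says only that reads of poly-A RNA were assigned to that stretch.

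The sequences of 3 origins and both centromeres are shown because they mark the ends of the range described here. ARS409 and ARS923 gave reads from S. paradoxus and almost none from S. cerevisiae, ARS511 showed the opposite, and the centromeres gave almost no reads in any library. They are the plus strands of the R64 features of the same name in RefSeq, the S. cerevisiae reference, at chrIV:212519-212618, chrIX:245756-245925, chrV:173700-173864, chrIX:355629-355745 and chrXVI:555957-556073. All 3 origins lie between genes that point away from them. ARS409 lies between SCM3 and RGT2, ARS923 between SNP1 and YIL060W, and ARS511 between YER010C and TIR1. Capitals mark exact matches of the ARS consensus sequence in the origins, both on the minus strand, and CDEI and CDEIII in the centromeres. The stretch of S. paradoxus that each row stands for is not given in the sources used here.
ARS409: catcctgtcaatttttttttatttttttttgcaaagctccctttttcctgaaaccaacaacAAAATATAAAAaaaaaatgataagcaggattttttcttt
ARS923: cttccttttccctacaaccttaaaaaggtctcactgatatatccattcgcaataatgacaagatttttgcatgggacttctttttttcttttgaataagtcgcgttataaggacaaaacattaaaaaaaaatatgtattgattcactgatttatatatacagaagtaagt
ARS511: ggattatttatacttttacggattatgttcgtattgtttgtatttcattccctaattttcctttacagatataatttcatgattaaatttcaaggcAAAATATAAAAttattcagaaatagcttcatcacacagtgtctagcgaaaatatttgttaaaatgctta
CEN9: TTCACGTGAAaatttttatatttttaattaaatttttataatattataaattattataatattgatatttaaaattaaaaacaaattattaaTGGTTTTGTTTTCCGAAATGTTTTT
CEN16: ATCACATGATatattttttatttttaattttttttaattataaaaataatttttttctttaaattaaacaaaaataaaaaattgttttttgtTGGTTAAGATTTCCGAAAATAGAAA

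Of the 189 origin rows, 185 have an R64 feature of the same name. These are 51 to 1061 bases long with a median of 232, and 129 of them overlap no protein-coding gene. An exact match of the ARS consensus sequence, searched on both strands, is found in 70 of the 185 (37.8%). It is found in 54 of the 167 other named origins of R64 (32.3%), and in 741 of 52025 windows of 232 bases tiled over the nuclear chromosomes (1.42%). The median AT content of the 185 is 70.7%, beside 61.7% for those chromosomes. A missing match says only that the exact letters are not in the R64 feature. The table has no row named for a Ty element body.

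One hybrid library went against its labels. In T0 replicate 1 the column given for the S. paradoxus allele never exceeded the sum of the S. cerevisiae allele columns of T0 replicates 1 and 2, in any of the 3463 rows. It held counts in 3152 rows, and in none of these was that sum 0. Of the 2387 rows with at least 5 counts in both S. cerevisiae columns, 183 equalled the sum exactly (7.67%), and over the 14879 other sets of 3 allele columns compared in this way the highest share was 0.807%. Among the members the column equalled the sum in 100 of the 156 with a count. It made up 65.5% of that library's counts, where the S. paradoxus allele made up 49.5 to 52.1% in the other 15 hybrid libraries. The column therefore cannot be taken as a count of the S. paradoxus allele, and it is also part of that library's total. How it arose was not tested. The planned comparisons keep this library, which is the first of the 4 hybrid T0 values given below, and each hybrid comparison with T0 is also given without it. Allele counts are given over the other 15 libraries.

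Total counts per library ran from 24169 to 7793926 with a median of 1366509. The 4 shallowest are replicate 2 of S. cerevisiae at M1M2 (24169) and at M1 (161115), replicate 3 of the hybrid at M2 (118519) and replicate 2 of S. paradoxus at M2 (308782). Levels are given as CPM, the counts of a row per 1000000 counts over all rows of its library. The meiotic genes IME2 and NDT80, which encode a kinase and a transcription factor of meiosis, rose at M1M2 and M2 in all 3 genotypes, and IME2 also at M1. At M1M2 NDT80 stood at 106, 1200 and 301 CPM in S. cerevisiae and 2428, 1572 and 4818 in S. paradoxus. The hybrid had 5690, 4809, 4575 and 4854 CPM. A difference between genotypes at M1M2 therefore cannot be told apart from a difference in progress through meiosis, which was not tested. The members together held 0.392 to 4.95% of a library's counts. Of the 246, 235 had a count in at least 1 library, 11 had none, and 17, all of them origins, had a count in all 40. Among the 3217 other rows, 1085 had a count in all 40. The median over rows of the median CPM was 14.0 for origins, 0 for long terminal repeats and 107.9 for the other rows.

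The summed level of the origins lay above T0 at every later stage in S. paradoxus, at M1M2 and M2 in the hybrid, and in fewer libraries of S. cerevisiae. In S. cerevisiae the summed level of all 189 origins was 3909, 16838 and 7348 CPM in the T0 libraries and 14999, 35891 and 48789 CPM in the M2 libraries, or 9365 ± 6697 against 33227 ± 17052 (mean ± SD, n = 3). No M1 library, 1 of 3 at M1M2 (the library of 24169 counts, at 29542 CPM) and 2 of 3 at M2 lay above all T0 libraries, so the groups overlapped at each stage. In S. paradoxus the sum was 9960.4, 16646 and 4399 CPM at T0 and 32948, 25350.4 and 17995 CPM at M1, and all 9 libraries of the later stages lay above all 3 of T0. The hybrid had 6982, 7099, 6054 and 10303 CPM at T0 and 12676, 43059, 25859 and 28967 CPM at M1M2. All its M1M2 and M2 libraries, and 3 of 4 at M1, lay above its T0 libraries, with or without T0 replicate 1. The M1 means were 11809.9 ± 3583 CPM in S. cerevisiae (n = 3), 25431 ± 7477 in S. paradoxus (n = 3) and 24260.2 ± 10897 in the hybrid (n = 4). These sums were not tested, since the members were chosen with results of these data known. In bulk samples such as these, more RNA of a row in each cell cannot be told apart from more cells that hold it, or from less of other RNA.

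The 10 leading origins of a group held 45.3 to 73.7% of the summed level in the 8 parental groups. The highest share was in S. cerevisiae at M1M2, where ARS309 alone held 21.1%. That group holds the shallowest library, in which ARS309 stood at 7613 CPM, beside 1794 and 1859 CPM in the others. The long terminal repeats held a far smaller share. Their sum in S. cerevisiae was 6.99, 18.7 and 50.5 CPM at T0 and 267, 427 and 741 CPM at M2. In S. paradoxus it was 94.3, 107 and 32.3 CPM at T0 and 2561, 351 and 668 CPM at M1M2. In the hybrid it was 71.0, 56.7, 142 and 36.6 CPM at T0 and 841, 1643, 559 and 542 CPM at M1M2. All M2 libraries of both parents lay above their T0 libraries, as did all M1M2 libraries of S. paradoxus and the hybrid. Without T0 replicate 1 the hybrid T0 range of the repeats was 36.6 to 142 CPM. At M2 the hybrid's shallow replicate 3, at 92.8 CPM, lay within its T0 range.

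**Figure D1:**
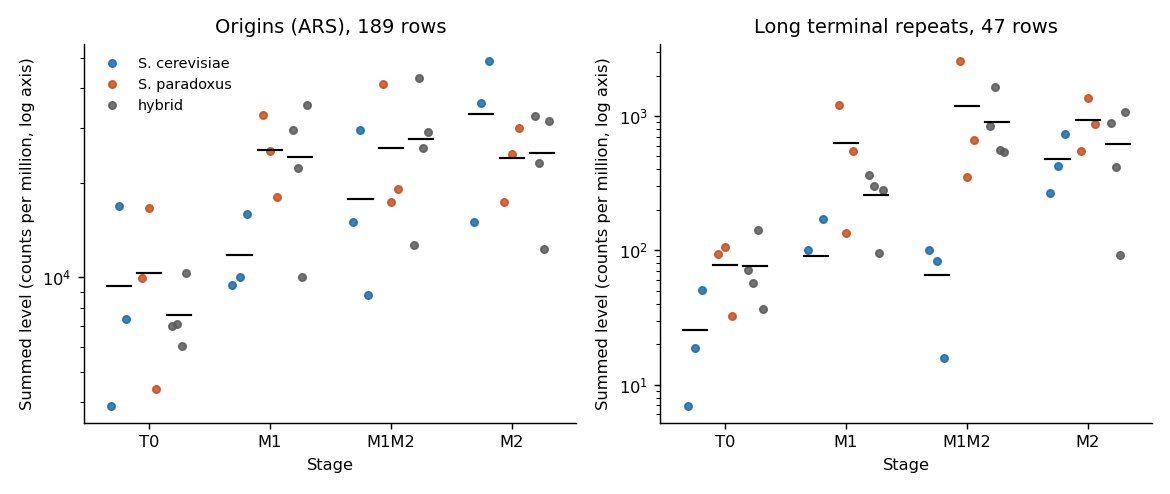
Summed level of all origin rows (left) and all long terminal repeat rows (right) in each library, in CPM on a log axis, against stage. Each point is 1 library and each bar the mean of its group. Origin sums lie between 3909 and 16838 CPM in the T0 libraries and reach 48789 CPM in S. cerevisiae at M2, and repeat sums reach 2561 CPM in S. paradoxus at M1M2.

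Each row was then compared between stages in 1 edgeR quasi-likelihood fit of the whole table, in which a row was called at a Benjamini-Hochberg adjusted p under 0.05 over all 3298 rows tested. The low-count filter kept 204 of the 246 members, 178 origins and 26 long terminal repeats. A row can pass that filter through the group in which it is high, so counts over these 204 describe them only. Each count of members is given with the share of all rows called the same way against T0. Among the members in S. cerevisiae, calls at M1 were 4 higher (3.34% of rows) and 1 lower (4.43%), with 7.76% of rows called. At M1M2 they were 9 higher (6.34% of rows) and none lower (5.55%), with 11.9% of rows called, and at M2 they were 37 higher (11% of rows) and 2 lower (11.3%), with 22.3% of rows called. Among the members in S. paradoxus, calls at M1 were 6 higher (1.55% of rows) and 1 lower (1.76%), with 3.31% of rows called. At M1M2 they were 17 higher (4.67% of rows) and 1 lower (4.24%), with 8.91% of rows called, and at M2 they were 22 higher (7.97% of rows) and 3 lower (6.82%), with 14.8% of rows called. Among the members in the hybrid, calls at M1 were 28 higher (4.94% of rows) and 2 lower (7.49%), with 12.4% of rows called. At M1M2 they were 50 higher (11.5% of rows) and 2 lower (10.6%), with 22.1% of rows called, and at M2 they were 40 higher (13.3% of rows) and 2 lower (12.2%), with 25.5% of rows called. Without hybrid T0 replicate 1 the members' calls in the hybrid were 15 higher (3.28% of rows) and 1 lower (6.95%) at M1, with 10.2% of rows called. They were 26 higher (9.25%) and 2 lower (9.52%) at M1M2, with 18.8% of rows called, and 28 higher (11.2%) and 1 lower (10.6%) at M2, with 21.7% of rows called. Of the calls with all libraries, 15 of 30, 27 of 52 and 29 of 42 remained. Leaving out single libraries moved these counts. In the parents the lowest were 16 calls in place of 39 in S. cerevisiae at M2 without T0 replicate 3 and 12 in place of 25 in S. paradoxus at M2 without T0 replicate 2.

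The share of members called was near the share of all rows in most of these comparisons and below it in S. cerevisiae at M1 and M1M2, where 2.45% and 4.41% of the members were called. Without hybrid T0 replicate 1 it was below the share of all rows in the hybrid too, with 7.84% at M1, 13.7% at M1M2 and 14.2% at M2. The direction of the members' calls was uneven, and that of all rows was more even, except in the hybrid at M1, where more rows were called lower than higher. In the hybrid at M1M2, 11.5% of all rows tested were called higher and 10.6% lower, while the members split 50 to 2, or 26 to 2 without T0 replicate 1. In S. cerevisiae at M2 those shares were 11% and 11.3%, and the members split 37 to 2. The members lie at lower levels, with a median CPM of 14.0 for origins and 0 for repeats, beside 107.9 for the other rows. A row near 0 at T0 can be called higher but hardly lower. The splits of members and of all rows therefore do not compare rows of like level. With rows that had a group at 0 set to their bound, the median log2 change of the 204 members was 2.08 in the hybrid at M1M2, where that of all rows was 0.15, and 2.19 beside 0.2 without T0 replicate 1. It was 1.39 in S. cerevisiae at M2 and 1.07 in S. paradoxus at M2, where those of all rows were 0 and -0.07. In S. cerevisiae it was 0 at M1 and at M1M2. Over the 9 stage comparisons 92 of the 204 members (45.1%) were called at least once, beside 1409 of all 3298 rows (42.7%). Of the members 84 (41.2%) were called only as higher and 7 (3.43%) only as lower, where the shares of all rows were 22.2% and 19.0%. In all 3 genotypes 15 members (7.35%) and 375 rows (11.4%) were called. Without hybrid T0 replicate 1 the members called at least once were 73 (35.8%), 66 of them only as higher and 6 only as lower, beside 40.2% of all rows.

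**Figure D2:**
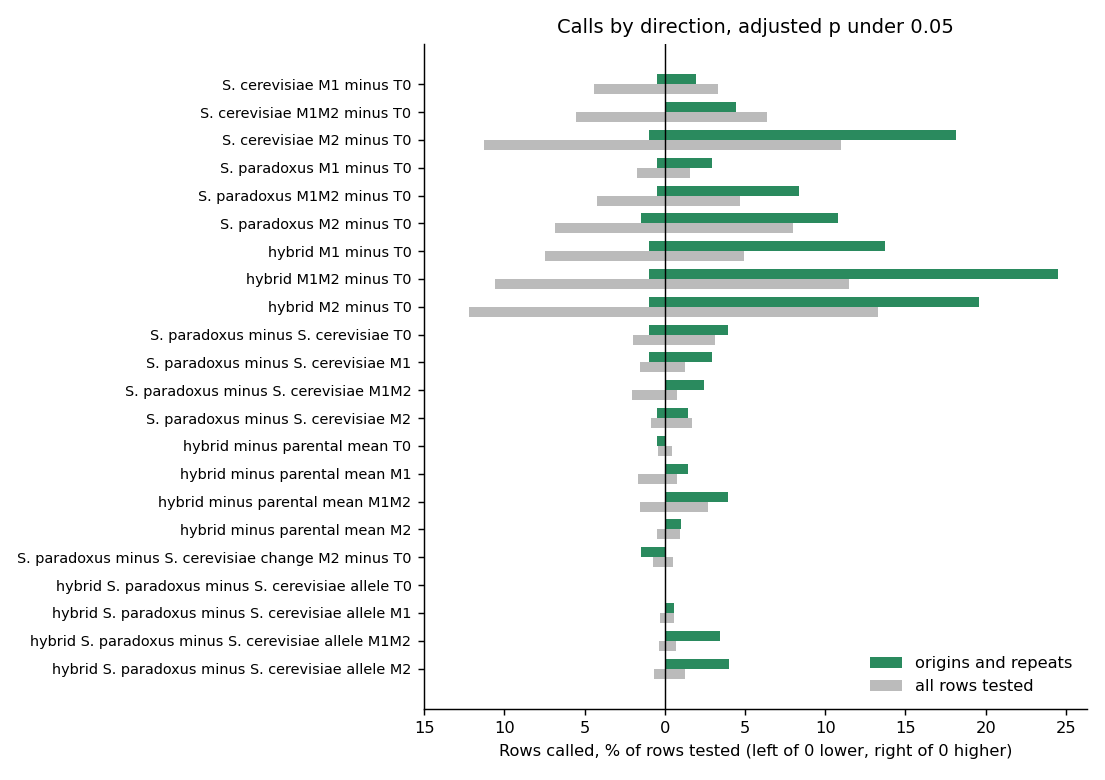
Rows called higher (right of 0) and lower (left of 0) in each comparison, as a percentage of the rows tested, for origins and repeats and for all rows. The members' bars extend to the right in every stage comparison, with 50 higher and 2 lower in the hybrid at M1M2, while the bars of all rows extend about equally far to both sides in the parents and in the hybrid at M1M2 and M2. All libraries are included, and without T0 replicate 1 the hybrid split at M1M2 is 26 to 2. The members lie at lower levels than the other rows, and a row near 0 at T0 can hardly be called lower.

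ARS1316 was called higher in all 9 stage comparisons. Its R64 feature, chrXIII:468179-468469, begins 17 bases after the end of MUB1 and overlaps the end of SRT1 on the other strand, which encodes a prenyltransferase of dolichol synthesis. Its level in S. cerevisiae was 6.27, 4.91 and 1.81 CPM at T0, 28.1, 168 and 119 at M1, 1038, 5709.8 and 488 at M1M2 and 444, 432 and 979 at M2. In S. paradoxus it was 15.8, 30.0 and 13.9 CPM at T0, 644, 341 and 616 at M1, 1716, 834 and 227 at M1M2 and 263, 9.72 and 393 at M2. In the hybrid it was 43.5, 27.3, 20.1 and 31.4 CPM at T0, 967, 345, 255 and 903 at M1, 373, 2932, 911 and 1345 at M1M2 and 247, 132, 25.3 and 285 at M2. The mean was highest at M1M2 in each genotype, and of the later libraries only the shallow M2 libraries of S. paradoxus and the hybrid were not above T0. The log2 change from T0 to M1M2 was 9.3 ± 1.23 (SE, adjusted p = 2.85e-07) in S. cerevisiae, 5.2 ± 1.02 (SE, adjusted p = 0.000257) in S. paradoxus and 5.39 ± 0.9 (SE, adjusted p = 5.88e-06, and 5.6 ± 1.04, adjusted p = 5.81e-05, without T0 replicate 1) in the hybrid.

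ARS309 had the highest mean level of all members, also per length, and lies at chrIII:132043-132120, 153 bases beyond the end of ADY2, which encodes an acetate transporter. Per length its mean over the 12 groups was 35563 CPM per kb, followed by 13036 for ARS1507. In S. cerevisiae it had 639.5, 1812 and 699 CPM at T0, 716, 1614 and 964 at M1, 1794, 7613 and 1859 at M1M2 and 3733, 3305 and 5762 at M2. The S. paradoxus libraries had 64.7, 255 and 80.3 CPM at T0, 5117, 4883 and 4008 at M1, 7179, 2272 and 1441 at M1M2 and 2145, 3109 and 3236 at M2. In the hybrid it had 532, 455, 562 and 1482 CPM at T0, 5320.1, 3578, 2349 and 5569.6 at M1, 1586, 5437, 2095 and 5176 at M1M2 and 2492, 2033, 4852 and 3901 at M2. At M1 the S. paradoxus and hybrid libraries lay above all their T0 libraries, whereas those of S. cerevisiae lay within the T0 range. The log2 change to M1 was 4.95 ± 0.79 (SE, adjusted p = 3.11e-05) in S. paradoxus and 2.4 ± 0.61 (SE, adjusted p = 0.0045, and 2.25 ± 0.68, adjusted p = 0.0235, without T0 replicate 1) in the hybrid, and the row was not called at M1 in S. cerevisiae. At T0 the S. paradoxus libraries all lay below those of S. cerevisiae, with a log2 difference of -3.17 ± 0.73 (SE, adjusted p = 0.00336). In S. cerevisiae the change was 1.97 ± 0.69 (SE, adjusted p = 0.0314) at M2, and it was not called without T0 replicate 1, T0 replicate 3 or M2 replicate 3 (adjusted p up to 0.127).

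Several other origins were called higher at M2 in all 3 genotypes. ARS446, at chrIV:1486918-1487161, overlaps the start of SPS1, which encodes a kinase of spore wall formation. In S. cerevisiae ARS446 had 10.7, 8.84 and 3.93 CPM at T0, 9.004, 205 and 11.1 at M1, 14.4, 82.8 and 7.49 at M1M2 and 1741, 913 and 1112 at M2. The corresponding S. paradoxus values were 4.46, 3.57 and 3.09 CPM at T0, 8.44, 13.5 and 3.05 at M1, 108, 63.3 and 644 at M1M2 and 1149, 2040.3 and 1555 at M2. The hybrid had 9.93, 7.18, 23.0 and 18.3 CPM at T0, 12.6, 5.76, 5.92 and 8.09 at M1, 1220.2, 403, 926 and 170.0 at M1M2 and 1618, 2212, 25.3 and 3156 at M2. The low hybrid M2 value is the shallow replicate 3, and the high S. cerevisiae M1 value, 205 CPM, is the shallow replicate 2. The change to M2 was 7.1 ± 1.2 (SE, adjusted p = 7.38e-06) in S. cerevisiae, 8.85 ± 1.29 (SE, adjusted p = 4.73e-07) in S. paradoxus and 7.21 ± 1.05 (SE, adjusted p = 2.83e-07, and 7.03 ± 1.2, adjusted p = 1.07e-05, without T0 replicate 1) in the hybrid, on the log2 scale. A call of ARS446 at M1 in S. cerevisiae (adjusted p = 0.0327) was lost without that library, and the log2 change was -0.037 without the 4 shallow libraries.

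ARS1507, at chrXV:72683-72753, overlaps the end of GAS4, which encodes an enzyme that extends glucan in the spore wall. It had 14.2, 6.88 and 0.906 CPM at T0 and 938, 7007 and 4027 at M2 in S. cerevisiae. It had 7.73, 2.86 and 2.96 CPM at T0 and 1310.0, 2788 and 2704 at M2 in S. paradoxus, and 11.8, 15.4, 20.1 and 13.1 at T0 and 4435, 2672, 447 and 1845 at M2 in the hybrid. Every M2 library lay above every T0 library of its genotype. The log2 change to M2 was 8.8 ± 1.11 (SE, adjusted p = 1.57e-08) in S. cerevisiae, 9.08 ± 1.13 (SE, adjusted p = 1.2e-08) in S. paradoxus and 7.52 ± 0.92 (SE, adjusted p = 3.19e-09, and 7.38 ± 1.06, adjusted p = 3.39e-07, without T0 replicate 1) in the hybrid. At M1M2 its level was 48.7, 166 and 67.5 CPM in S. cerevisiae, 612, 172 and 1375 in S. paradoxus and 712, 2322, 2270.2 and 1065 in the hybrid, so the hybrid libraries were all above those of S. cerevisiae at that stage.

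ARS522, at chrV:549566-549814, lies 49 bases after the end of DMC1, the meiotic recombinase, and overlaps the end of ISC10. Its S. cerevisiae levels were 5.91, 39.3 and 0.302 CPM at T0 and 133, 1641 and 2285 at M2. Its S. paradoxus levels were 30.9, 1.43 and 2.96 CPM at T0, 72.4, 138 and 371 at M1 and 564, 848 and 1229 at M2. Its hybrid levels were 16.03, 27.3, 11.5 and 23.6 CPM at T0, 266, 116, 6.76 and 307 at M1 and 914, 579, 0 and 918 at M2. The groups did not overlap in either parent between T0 and M2, and in the hybrid only the shallow M2 replicate 3 was not above T0. The log2 change to M2 was 6.58 ± 1.36 (SE, adjusted p = 0.000186), 6.38 ± 1.34 (SE, adjusted p = 0.000379) and 5.23 ± 1.12 (SE, adjusted p = 0.000243, and 5.12 ± 1.27, adjusted p = 0.0018, without T0 replicate 1) in S. cerevisiae, S. paradoxus and the hybrid. ARS522 was also above T0 in all S. paradoxus M1 libraries and in 3 of 4 of the hybrid, where the change to M1 was 3.11 ± 1.02 (SE, adjusted p = 0.0327, and 3.01 ± 1.15, adjusted p = 0.0831, without T0 replicate 1), a call that 6 of the 8 fits that left out 1 library did not make.

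ARS1013 (522 bases at chrX:375706-376227, overlapping the start of YJL038C, with no gene end facing it) had 4.66, 14.7 and 48.6 CPM at T0 and 905, 603 and 964 at M2 in S. cerevisiae. In S. paradoxus these were 8.77, 4.29 and 4.38 and 513, 609 and 598 CPM, and in the hybrid 33.2, 12.9, 8.62 and 15.7 and 628, 807, 16.9 and 1638 CPM. Only hybrid M2 replicate 3 lay within a T0 range. The log2 change was 5.12 ± 1.07 (SE, adjusted p = 0.000198), 6.73 ± 1.15 (SE, adjusted p = 1.3e-05) and 5.74 ± 0.96 (SE, adjusted p = 4.66e-06, and 6.26 ± 1.13, adjusted p = 2.7e-05, without T0 replicate 1) in that order. ARS1621, at chrXVI:511636-511793 over the end of ECM23, had 37.4, 2.51, 11.5 and 13.1 CPM at T0 and 3079.8, 1533, 8.44 and 2158 at M2 in the hybrid. Its log2 change to M2 was 8.18 ± 1.48 (SE, adjusted p = 2.41e-05) in S. cerevisiae, 8.01 ± 1.45 (SE, adjusted p = 3.69e-05) in S. paradoxus and 6.94 ± 1.2 (SE, adjusted p = 9.06e-06, and 7.87 ± 1.45, adjusted p = 3.77e-05, without T0 replicate 1) in the hybrid.

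**Figure D3:**
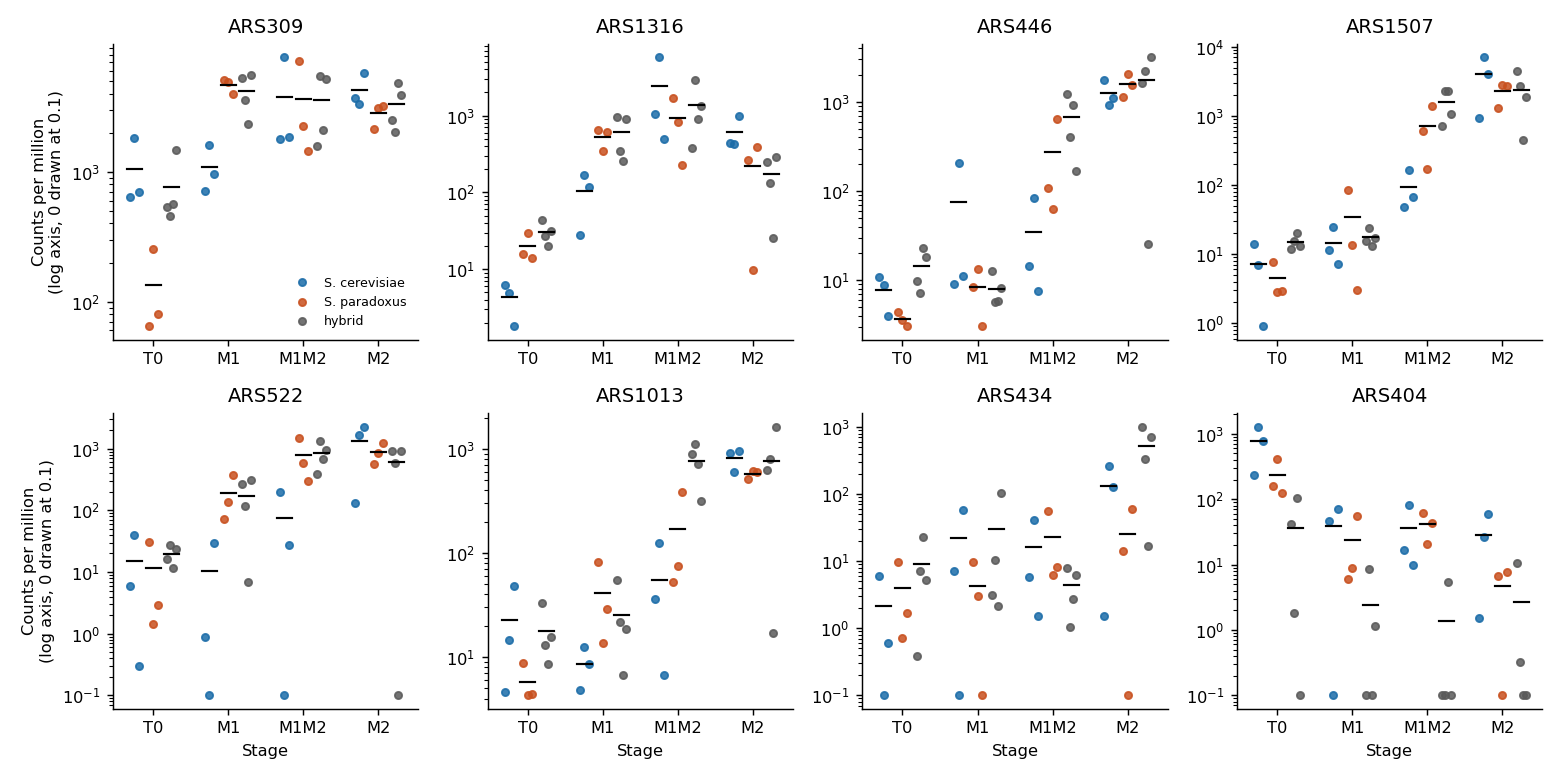
Level of 8 origins in each library, in CPM on log axes that differ between panels, against stage, with values of 0 drawn at 0.1. Points are libraries and bars are group means. ARS309 is above T0 from M1 on in S. paradoxus and the hybrid, ARS446 and ARS1507 are high at M2, as is ARS1013, whose S. paradoxus M1 values of 82.0, 13.5 and 28.7 CPM also lie above T0, and ARS404 is highest at T0 in each genotype.

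ARS434, at chrIV:1276225-1276452 and 13 bases after the end of DIT1, which acts in making the dityrosine of the spore wall, had its highest hybrid levels at M2. They were 0.382, 7.18, 23.0 and 5.24 CPM at T0, 3.14, 10.52, 2.11 and 105 at M1, 7.83, 1.04, 2.70 and 6.14 at M1M2 and 1015, 339, 16.9 and 721 at M2, a log2 change from T0 of 6.1 ± 1.65 (SE, adjusted p = 0.0037, and 5.66 ± 1.81, adjusted p = 0.0175, without T0 replicate 1). In S. cerevisiae the M2 values were 1.504, 263 and 126 CPM, and the call there (adjusted p = 0.025) was lost without T0 replicate 2, T0 replicate 3 or M2 replicate 2, with adjusted p up to 0.101. In S. paradoxus they were 14.4, 0 and 60.8 CPM and the row was not called.

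ARS606, at chrVI:167547-167801 between the divergent genes MIC19 and DCV1, was near 0 at T0 in S. cerevisiae and the hybrid. The S. cerevisiae levels were 0.537, 0 and 0 CPM at T0 and 268, 32.9 and 649 at M2. The hybrid levels were 0.763, 0.359, 0 and 0 CPM at T0 and 179.9, 166, 109.7 and 267 at M2. The groups did not overlap in either, and the log2 change was 9.76 ± 2.18 (SE, adjusted p = 0.000502) and 8.98 ± 1.89 (SE, adjusted p = 0.000199, and 9.71 ± 2.32, adjusted p = 0.0012, without T0 replicate 1). In S. paradoxus the level was 4.46, 20.02 and 3.35 CPM at T0 and 209.7, 0 and 169 at M2, and the row was not called.

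ARS1120, at chrXI:612378-612463 between the ends of SRL3 and SRP40, was called higher in 7 of the 9 stage comparisons. In S. paradoxus it had 44.3, 109 and 14.8 CPM at T0 and 415, 1176 and 942 at M2. In the hybrid it had 29.4, 31.96, 17.2 and 5.24 CPM at T0 and 100.2, 505, 613 and 614 at M1M2, where the change was 4.3 ± 0.99 (SE, adjusted p = 0.000711, and 4.48 ± 1.14, adjusted p = 0.00273, without T0 replicate 1) on the log2 scale. This call and that of S. cerevisiae at M2 held in every fit that left out 1 library, and each of the other 5 was lost in 1 to 4 of them. ARS733, at chrVII:977728-977976 over the end of MPC3, a subunit of the mitochondrial pyruvate carrier, was called in the hybrid alone. Its hybrid level was 266, 257, 174 and 317 CPM at T0, 3063, 1809, 989 and 4614 at M1, 552, 2691, 1744 and 3035 at M1M2 and 2949, 1954, 2185 and 3059 at M2, with no overlap with T0, and the log2 change to M1 was 3.34 ± 0.69 (SE, adjusted p = 0.000381, and 3.34 ± 0.78, adjusted p = 0.00231, without T0 replicate 1). In the parents its T0 libraries spread from 81.9 to 892 CPM in S. cerevisiae and from 359 to 2131 CPM in S. paradoxus, and whether the hybrid's change differs from theirs was not tested.

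Falls were few. ARS404, at chrIV:46185-46237 beyond the end of SSB1, an Hsp70 chaperone of the ribosome, and next to the end of HO, was highest at T0. In S. cerevisiae it had 238, 1289 and 771 CPM at T0 and 1.504, 26.2 and 58.7 at M2. The S. paradoxus levels were 158, 419 and 126 CPM at T0 and 6.60, 0 and 7.60 at M2, and in the hybrid 41.6, 1.796, 103 and 0 at T0 and 0, 0, 5.41 and 0 at M1M2. The parental groups did not overlap, and the change to M2 was -4.75 ± 1.68 (SE, adjusted p = 0.0333) in S. cerevisiae and -5.39 ± 1.77 (SE, adjusted p = 0.0293) in S. paradoxus, on the log2 scale. The call in S. cerevisiae was lost without T0 replicate 2 or 3 or M2 replicate 1 or 2 (adjusted p up to 0.116). That in S. paradoxus was lost without T0 replicate 2 or any 1 of the M2 libraries (adjusted p up to 0.113). ARS404 was also called lower in the hybrid at M1M2, where the groups overlapped. The log2 change there was -5.19 ± 1.57 (SE, adjusted p = 0.0115, and -5.17 ± 1.63, adjusted p = 0.0174, without T0 replicate 1).

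ARS431, at chrIV:1057841-1057951 between the ends of SUR2 and ATP5, fell in the hybrid from 103, 109.5, 215 and 366 CPM at T0 to 7.62, 0, 0 and 1.74 at M2, a log2 change of -5.9 ± 1.37 (SE, adjusted p = 0.000696, and -6.13 ± 1.42, adjusted p = 0.00087, without T0 replicate 1), and its call held in all 8 fits that left out 1 library. The other members called lower at a stage were ARS1626, ARS1006, ARS1016, ARS805, ARS452 and ARS320. ARS1626 was lower in S. cerevisiae at M1 and in the hybrid at M2, where the call was lost without T0 replicate 1. ARS1006 and ARS1016 were lower in S. paradoxus at M2. ARS1006 was also lower in the hybrid at M1M2, with a log2 change of -2.89 ± 1.03 (SE, adjusted p = 0.0331, and -3.13 ± 1.07, adjusted p = 0.0308, without T0 replicate 1). Each call of these 6 was lost in at least 3 of the fits that left out 1 library.

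Most origin rows lie close to the end of a gene, and their level differed with the gene ends that face them. In R64, within 300 bases of the origin, 48 of the 185 origins have gene ends on both strands pointing at them, 46 on the plus strand only, 43 on the minus strand only and 48 on neither. The median level, as the mean of the 12 groups per length, was 415 CPM per kb (quartiles 197 and 1173) with ends on both strands. It was 187 CPM per kb (87.2 and 486) with a minus-strand end, 122 (68.3 and 771) with a plus-strand end and 62.0 (17.6 and 138) with none. The quartile ranges of the first and last class do not overlap. This is a description of R64 neighbours, and the strand and the counting rule behind the deposited values are not given in the sources used here. For an origin that overlaps a gene, reads of the gene cannot be told apart from reads of the origin.

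The plus-strand gene that ends at an origin is itself a row for 92 tested origins. Of 227 calls of members over the 9 stage comparisons, 121 are calls of such an origin. In 108 of the 121 (89.3%) the gene's log2 change had the same sign. Where the origin was not called the sign was the same in 445 of 707 (62.9%). The gene was itself called beside 53.7% of the called origins and 12.6% of the others, while 14.3% of all rows were called. It was called in the same direction in 63 cases and in the opposite direction in 2, ARS1116 beside GAP1 in the hybrid at M1M2 and ARS1626 beside DBF20 in the hybrid at M2. Without hybrid T0 replicate 1 there were 98 such calls of origins, 91 (92.9%) with the same sign, beside 467 of 730 of those not called. The gene was then called beside 57.1% and 12.9% of them, in 56 cases in the same direction and in none in the opposite, while 13.3% of all rows were called. These pairs repeat the same 92 origins over comparisons that share their T0 libraries. Genes that end at an origin on the minus strand are mostly not rows of the table. They are not part of these pairs, and whether they changed with the origin could not be checked.

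Beside some of the origins described above the gene that ends there was also called in the same direction, and beside others it was not. In S. cerevisiae at M2, GAS4 changed by 7.57 ± 0.9 (SE, adjusted p = 7.39e-09) beside 8.80 for ARS1507. DMC1 changed by 4.95 ± 0.84 (SE, adjusted p = 7.38e-06) there beside 6.58 for ARS522, and ECM23 by 7.39 ± 1.1 (SE, adjusted p = 6.99e-07) beside 8.18 for ARS1621. For ARS434 at M2 in the hybrid, with 6.1, DIT1 changed by 6.82 ± 1.21 (SE, adjusted p = 1.44e-05, and 8.06 ± 1.45, adjusted p = 2.42e-05, without T0 replicate 1). For ARS733 at M1 in the hybrid, with 3.34, MPC3 changed by 3.89 ± 0.55 (SE, adjusted p = 5.38e-07, and 3.91 ± 0.63, adjusted p = 1.05e-05, without T0 replicate 1). SSB1 changed by -5.07 ± 1.01 (SE, adjusted p = 0.00011) in S. cerevisiae at M2 beside -4.75 for ARS404. MUB1, which ends 17 bases before ARS1316, was not called at any stage. Its log2 change in S. cerevisiae at M1M2 was -0.31 ± 0.88 (SE, adjusted p = 0.908), beside 9.30 for ARS1316. SRT1, whose end on the other strand ARS1316 overlaps, is not a row, so its change is not known. The same holds for SRP40 beside ARS1120 and ADY2 beside ARS309, as for most minus-strand genes that end at an origin. SRL3 beside ARS1120 was called in the hybrid at M1M2, with 3.99 ± 0.82 (SE, adjusted p = 0.000155, and 3.88 ± 0.92, adjusted p = 0.00141, without T0 replicate 1), and not in S. cerevisiae at M1M2, with 2.4 ± 0.89 (SE, adjusted p = 0.0648). SUR2, which ends 241 bases before ARS431, had a log2 change of -0.37 ± 0.64 (SE, adjusted p = 0.711, and -0.3 ± 0.7, adjusted p = 0.797, without T0 replicate 1) in the hybrid at M2, where that of the origin was -5.90.

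**Figure D4:**
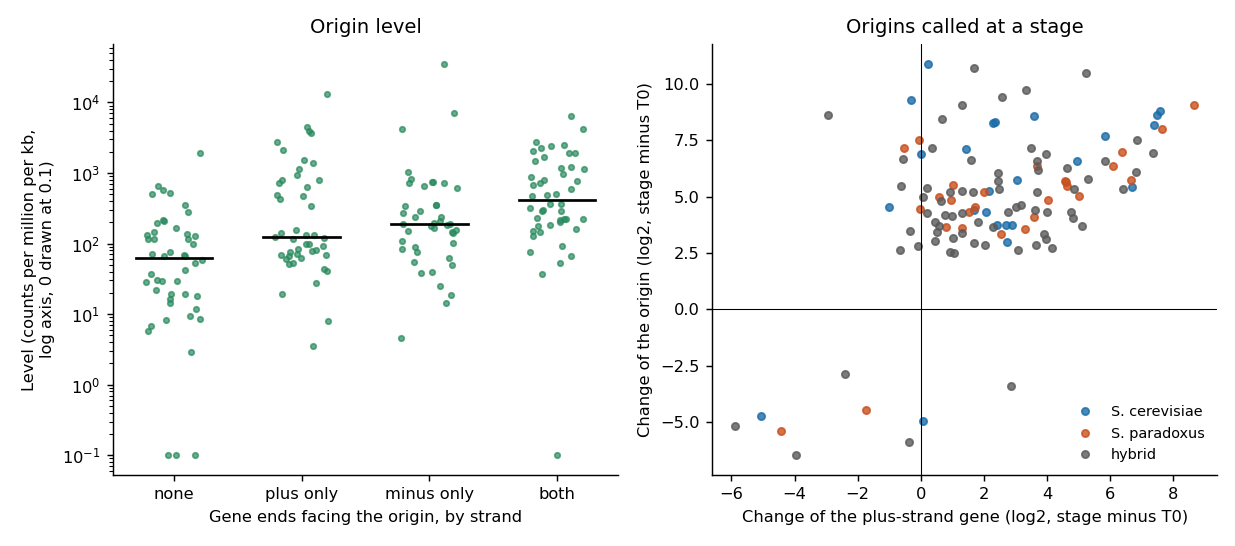
Left, level of each origin in CPM per kb on a log axis, by the gene ends that face it within 300 bases in R64, with bars at the medians (62.0 with none and 415 with ends on both strands). Right, log2 change from T0 of each called origin against that of the plus-strand gene that ends at it, 1 point for each origin and comparison, with 108 of the 121 points in the quadrants of like sign.

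Some rows gave reads in 1 parent and almost none in the other. Of the 246 members, 14 (5.69%) had at least 100 counts over the 12 S. paradoxus libraries and at most 3 over the 12 of S. cerevisiae, beside 48 of all 3463 rows (1.39%). The opposite held for 3 members (1.22%, ARS1206, ARS207 and YOLWsigma1) and 15 rows (0.433%). Of the 14, 9 are long terminal repeats and 5 are origins. In the hybrid not all of them split as clearly. The S. cerevisiae and S. paradoxus allele counts were 83 and 263 for YERWdelta9, 63 and 359 for YPLWdelta9, 46 and 304 for ARS1123 and 9 and 27 for ARS716. Each of the others had at most 10 S. cerevisiae allele counts. The thresholds were set after the values had been seen, so these rows get no test. Whether a count near 0 in 1 parent reflects the RNA or how reads were assigned to the row was not tested.

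The tau element YDLWtau1 had no count in any S. cerevisiae library. In S. paradoxus it had 0.446, 4.29 and 1.67 CPM at T0, 152, 28.5 and 26.5 at M1, 1308, 141 and 109 at M1M2 and 60.6, 90.7 and 137 at M2. With the 3 counts that 0 allows in S. cerevisiae over all 12 libraries, the S. paradoxus level of 3196 counts was at least 790-fold higher. In the hybrid it had 0.763, 0, 10.1 and 7.85 CPM at T0, 6.28, 27.8, 5.92 and 5.78 at M1, 247, 578, 117 and 108 at M1M2 and 113, 7.46, 8.44 and 107 at M2. All M1M2 libraries lay above all T0 and M1 libraries in the hybrid. Of the hybrid's allele counts 3330 were of S. paradoxus and none of S. cerevisiae. The log2 change from T0 to M1M2 was 7.63 ± 1.8 (SE, adjusted p = 0.0028) in S. paradoxus and 5.81 ± 1.46 (SE, adjusted p = 0.0023, and 5.36 ± 1.62, adjusted p = 0.0134, without T0 replicate 1) in the hybrid. Without M1M2 replicate 1 the S. paradoxus change had an adjusted p of 0.0531.

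The delta element YBRWdelta17 had 41 counts in 1 S. cerevisiae library, at M1, and none in the other 11. Its S. paradoxus levels were 1.78, 0.715 and 0.901 CPM at T0, 188, 53.4 and 132 at M1M2 and 181, 104 and 273 at M2. Its hybrid levels were 0.763, 0.359, 7.18 and 5.24 CPM at T0, 2.09, 6.76, 0.846 and 0 at M1, 175, 203, 157 and 135 at M1M2 and 243, 122, 0 and 106 at M2. The hybrid M1 libraries lay within or below the T0 range, and all 4 at M1M2 lay above it. Of its allele counts 2964 were of S. paradoxus and 3 of S. cerevisiae. The log2 change to M2 was 7.38 ± 1.88 (SE, adjusted p = 0.00385) in S. paradoxus and 5.46 ± 1.53 (SE, adjusted p = 0.00562, and 5.04 ± 1.71, adjusted p = 0.0258, without T0 replicate 1) in the hybrid. YHRCdelta10 had no S. cerevisiae count, 1118 in S. paradoxus, and 573 of the S. paradoxus allele and none of the S. cerevisiae allele in the hybrid. Every repeat named for the minus strand lacked S. cerevisiae counts, in the parent and in the hybrid allele. They are YHRCdelta10, YALCdelta2, YHRCdelta8, YHRCtau4, YJLCdelta3, YMRCdelta9 and YNLCdelta2. Repeats named for the plus strand were mixed, with 0 for YDLWtau1 and 494 for YPRWdelta14. Whether these 0 values follow the strand was not tested.

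ARS409 and ARS923, whose R64 sequences are printed above, showed the same split among origins. ARS409 had 0 counts in S. cerevisiae and 32.4, 80.8 and 7.98 CPM at T0 and 298, 91.2 and 160.2 at M1M2 in S. paradoxus, at least 426-fold more over all libraries. In the hybrid 1395 of its allele counts were of S. paradoxus and 10 of S. cerevisiae. ARS923 had 15 counts in S. cerevisiae, all in 1 M2 library, and 4013 in S. paradoxus, where it stood at 7.73, 60.8 and 0.258 CPM at T0, 291, 667 and 239.9 at M1 and 64.4, 3.24 and 13.3 at M2. Its hybrid allele counts were 2510 of S. paradoxus and 6 of S. cerevisiae. ARS511 had 1920 counts in S. cerevisiae and 27 in S. paradoxus, and its hybrid allele counts were 2366 of S. cerevisiae and 103 of S. paradoxus. YBRWdelta17, ARS923 and ARS511 have more than 3 counts in the lower parent and so are not among the rows counted above. ARS409, ARS923 and ARS511 were chosen after their values were seen. Of the 3 members that met the opposite rule, ARS1206 had 243 hybrid counts of the S. cerevisiae allele and 6 of S. paradoxus, and YOLWsigma1 had 180 and 15. ARS207 had 16 and 9, after 161 counts in S. cerevisiae and none in S. paradoxus, and these few counts give no clear split.

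**Figure D5:**
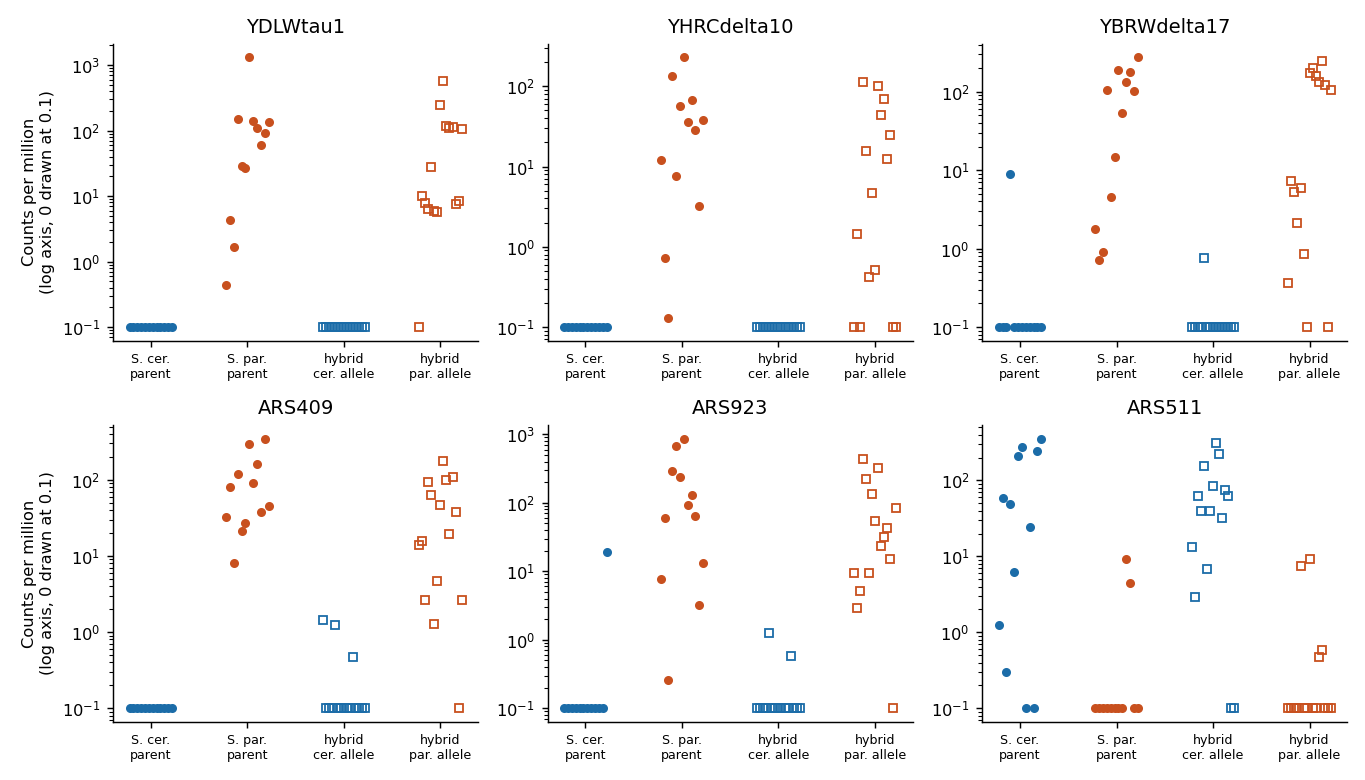
Level of 3 repeats and 3 origins in each library of the parents (filled circles, 12 libraries each) and of each allele in 15 hybrid libraries, without T0 replicate 1 (open squares), in CPM on log axes that differ between panels, with values of 0 drawn at 0.1. YDLWtau1, YHRCdelta10 and ARS409 have no S. cerevisiae count, and ARS511 is high in S. cerevisiae and in its allele.

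When the parents were compared stage by stage, higher meaning higher in S. paradoxus, member calls at T0 were 8 higher (3.15% of rows) and 2 lower (1.97%), with 5.12% of rows called. At M1 they were 6 higher (1.24% of rows) and 2 lower (1.55%), with 2.79% of rows called. At M1M2 they were 5 higher (0.788% of rows) and none lower (2.03%), with 2.82% of rows called, and at M2 they were 3 higher (1.7% of rows) and 1 lower (0.849%), with 2.55% of rows called. ARS409 was called at all 4 stages, with a bound of at least 81.7-fold higher at T0 (adjusted p = 0.00903), at least 80.6-fold at M1, at least 248-fold at M1M2 and at least 63.3-fold at M2. YDLWtau1 was called from M1 on, with at least 798-fold at M1M2 (adjusted p = 0.00234). ARS923 was called at T0, M1 and M1M2, and was at least 605-fold higher at M1 (adjusted p = 0.0027). ARS511 was at least 35.8-fold lower in S. paradoxus at T0 (adjusted p = 0.0229) and at least 187-fold lower at M1 (adjusted p = 0.0256). These bounds are against 3 counts over the group at 0. The calls of YDLWtau1 at M1M2 and ARS923 at M1 held in all 6 fits that left out 1 library. Those of ARS409 were lost in 2 to 4 of them, and both of ARS511 in 4, with adjusted p up to 0.243. ARS1328, at chrXIII:772631-772879 between GAD1 and GTO3, was higher in S. paradoxus at T0 by 4.97 ± 1.16 (SE, adjusted p = 0.00405) on the log2 scale.

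Within the hybrid, the alleles at T0 were compared without replicate 1, since its S. paradoxus column cannot be read as that allele. Of 181 members tested by edgeR, 2 were called (0.911% of rows), ARS733 with a log2 difference of 2.48 ± 0.63 (SE, adjusted p = 0.0269) and ARS1424 with -4.48 ± 1.12 (SE, adjusted p = 0.0232), higher and lower on the S. paradoxus allele. With replicate 1 kept none was called (0.0946% of rows), 15 had an unadjusted p under 0.05 and DESeq2 called 7. At M1 member calls were 1 higher (0.568% of rows) and none lower (0.315%), with 0.883% of rows called. At M1M2 they were 6 higher (0.725% of rows) and none lower (0.378%), with 1.1% of rows called, and at M2 they were 7 higher (1.23% of rows) and none lower (0.694%), with 1.92% of rows called, higher meaning higher on the S. paradoxus allele. The median log2 difference of all rows was itself above 0, at 0.15 at M1M2, and that of the 174 members tested was 0.73. At T0 without replicate 1 it was 0.08 for all rows and 0.38 for the members. YDLWtau1 had 1927, 558, 130 and 229 S. paradoxus counts in the 4 M1M2 libraries and none of S. cerevisiae, so the allele was at least 948-fold higher (adjusted p = 0.00108). YBRWdelta17 had 1362, 196, 174 and 285 against none, at least 672-fold higher (adjusted p = 0.00108). ARS923 had 416, 316, 26 and 67 against none (adjusted p = 0.00275). ARS1328 had 281, 211, 290 and 1156 S. paradoxus counts against 2, 2, 5 and 32 of S. cerevisiae, a log2 difference of 6.06 ± 1.13 (SE, adjusted p = 0.000621). Hybrid reads given to neither allele are in no value, and their number in each row is not given in the sources used here.

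The hybrid was also compared with the mean of its parents on the log2 scale. Member calls at T0 were none higher (0.455% of rows) and 1 lower (0.424%), with 0.879% of rows called, or none higher and 1 lower with 0.819% of rows called without hybrid T0 replicate 1. At M1 they were 3 higher (0.758% of rows) and none lower (1.67%), with 2.43% of rows called. At M1M2 they were 8 higher (2.67% of rows) and none lower (1.58%), with 4.24% of rows called, and at M2 they were 2 higher (0.94% of rows) and none lower (0.485%), with 1.43% of rows called. At M1M2 ARS1507 was higher by 2.77 ± 0.67 (SE, adjusted p = 0.00602), ARS446 by 3.49 ± 0.85 (SE, adjusted p = 0.00578) and ARS1013 by 3.35 ± 0.8 (SE, adjusted p = 0.00519). The ARS1013 levels at M1M2 were 891, 1110.0, 719 and 314 CPM in the hybrid, 35.9, 124 and 6.75 in S. cerevisiae and 53.0, 74.5 and 384 in S. paradoxus. Only the lowest hybrid value lay under the highest parental one. NDT80 was also lower in the S. cerevisiae M1M2 libraries than in all others of that stage. Whether these differences follow progress through meiosis was not tested. The calls of ARS1507 and ARS1013 held in all 10 fits that left out 1 library, and that of ARS446 was lost without S. cerevisiae M1M2 replicate 1 or 3 (adjusted p up to 0.057). At T0 ARS1406, at chrXIV:61599-61895 between the ends of YPT11 and RPS19B, was lower in the hybrid, with a log2 difference of -8.83 ± 1.8 (SE, adjusted p = 0.00149, and -11.4 ± 2.54, adjusted p = 0.0073, without T0 replicate 1). Its S. cerevisiae and S. paradoxus allele counts over all hybrid libraries were 185 and 246, and 184 and 245 without that replicate. The size of the difference thus rests on very few hybrid T0 counts and is not well measured.

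For the difference between the parents in the change from T0 to M2 (S. paradoxus minus S. cerevisiae), member calls were none higher (0.515% of rows) and 3 lower (0.728%), with 1.24% of rows called. For ARS702, at chrVII:64360-64464 and 39 bases from the end of SAP4, S. cerevisiae had no count at T0 and 82.7, 74.3 and 152 CPM at M2, while S. paradoxus had 29.1, 235 and 5.92 CPM at T0 and 199, 220.2 and 454 at M2. ARS1427 and YERWdelta11 were also called higher at M2 in S. cerevisiae and were not called in S. paradoxus, and the call of YERWdelta11 was lost without S. cerevisiae T0 replicate 3 (adjusted p = 0.0509). ARS1427 had 2.33, 2.95 and 0.906 CPM at T0 and 115, 497 and 808 at M2 in S. cerevisiae, and 24.5, 218 and 2.83 at T0 and 14.9, 3.24 and 199 at M2 in S. paradoxus. Without the shallow libraries 1 member was called for this difference.

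In all, 15 of the 26 long terminal repeats tested were called higher than at T0 at some stage, and none lower. They were 13 delta, 1 tau and 1 sigma, or 57.7% of the repeats tested. Of all rows 42.7% were called at least once and 22.2% only as higher. Without hybrid T0 replicate 1 there were 12 repeats (46.2%), beside 40.2% and 20.3% of all rows. The T0 sums over all 47 repeats averaged only 25.4 CPM in S. cerevisiae, 77.7 in S. paradoxus and 76.7 in the hybrid. A repeat near 0 at T0 can hardly be called lower, and it can pass the filter through a later group. The lack of lower calls and the contrast in direction with all rows are therefore no result about the repeats. The edgeR fit called 7 of 26 in S. cerevisiae at M2 (26.9%, beside 22.3% of all rows), and 2 (7.69%, beside 8.91%) and 3 (11.5%, beside 14.8%) in S. paradoxus at M1M2 and M2. In the hybrid it called 2 (7.69%, beside 12.4%) at M1, 7 (26.9%, beside 22.1%) at M1M2 and 6 (23.1%, beside 25.5%) at M2, and without T0 replicate 1 none, 3 and 3 (11.5% at both M1M2 and M2, beside 18.8% and 21.7%). With all libraries the shares in single comparisons are near those of all rows. Without T0 replicate 1 edgeR called no repeat in the hybrid at M1, where 5 had an unadjusted p under 0.05. In the parents at M1 it called none, where DESeq2 called 4 in S. cerevisiae and 2 in S. paradoxus, and 4 and 9 repeats had an unadjusted p under 0.05. YCRWdelta8 changed by 7.73 ± 2.27 (SE, adjusted p = 0.00793, and 7.65 ± 2.65, adjusted p = 0.0289, without T0 replicate 1) in the hybrid at M2. YPLWdelta8 had no count in the hybrid at T0 and 763 at M1M2 (adjusted p = 0.016). Of the 763 counts 743 were in M1M2 replicate 1, and the call was lost without it (adjusted p up to 0.0983) and without T0 replicate 1 (adjusted p = 0.0515).

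Centromeres and telomeric repeats gave almost no reads. CEN9 had no count in any of the 40 libraries, which allows a level of up to 0.0342 CPM over all of them (3 counts of 87619662, counting error only). CEN16 had 4 counts, all in S. paradoxus M1M2 replicate 1. TEL03R-XR had 90 counts in all. Of these 62, 13 and 2 were in the S. paradoxus M1M2 libraries, and no other library had more than 6. TEL09R-XR had 74 counts in 7 libraries, with at most 27 in 1 library. TEL09R-XC, TEL03R-XC and TEL11R-XC had 3, 5 and 2 counts, and the other 3 telomeric rows had none. The omega elements had 19 and 20 counts in all. None of these rows passed the low-count filter, so none was tested, and a low level cannot be told apart from none at these depths.

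Genes whose products act on these regions were taken from lists of names. Of the 14 origin licensing genes 10 are rows. ORC1, the largest subunit of the origin recognition complex, rose from T0 to M2 in all 3 genotypes, by 4.02 ± 0.85 (SE, adjusted p = 0.000222) in S. cerevisiae, 4.25 ± 0.86 (SE, adjusted p = 0.000191) in S. paradoxus and 3.69 ± 0.72 (SE, adjusted p = 7.27e-05, and 4.01 ± 0.83, adjusted p = 0.000221, without T0 replicate 1) in the hybrid, on the log2 scale. No other gene of that list was called at M2 but MCM3, a helicase subunit, which was lower in the hybrid. Of 11 centromere and kinetochore genes 6 are rows, and SGO1, which guards centromeric cohesion in meiosis, rose by 5.0 ± 0.86 (SE, adjusted p = 1.00e-05) in S. cerevisiae, 4.69 ± 0.85 (SE, adjusted p = 3.38e-05) in S. paradoxus and 4.51 ± 0.73 (SE, adjusted p = 2.57e-06, and 4.22 ± 0.81, adjusted p = 7.05e-05, without T0 replicate 1) in the hybrid at M2. The other 5 were not called at a stage. Of 15 telomere genes 5 are rows, and none was called at a stage. MCM6, another helicase subunit, encoded on the minus strand, had no count in S. cerevisiae and 4193 in S. paradoxus. ARS409 and YDLWtau1 also had no count in S. cerevisiae. Whether such a 0 reflects the RNA or how reads were assigned to the row was not tested, and the counting rule is not given in the sources used here.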

How the data were processed

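Poly-A RNA of 40 libraries was purified from total RNA, reverse transcribed with poly-A primers and sequenced on Illumina HiSeq, per the labels' protocols. The authors deposited raw read counts per named row, and hybrid counts are given for each allele. The submitters' processing notes name Bowtie 0.12.7 and DESeq 1.8.3. The genome build, the annotation, the strand rule and the counting rule are not given in the sources used here. The deposited variance-stabilised tables were not used. The 2 deposited arrangements of the counts were equal in all 138520 of 138520 cells. A hybrid library's value is the sum of both alleles. The deposited S. paradoxus allele counts of hybrid T0 replicate 1 never exceeded the sum of the S. cerevisiae allele counts of T0 replicates 1 and 2, so every comparison with hybrid T0 is also given without that library, and the allele comparison at T0 only without it as a result.

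CPM values (counts per 1000000) were computed over all rows of a library. Library totals ran from 24169 to 7793926 counts. All rows were fitted together over 12 groups with edgeR 4.0.16 (TMM factors, filterByExpr, quasi-likelihood test) in R 4.3.3, and p-values were adjusted by Benjamini-Hochberg over all rows of a comparison, with calls at 0.05. The SE printed with an edgeR log2 change is the size of that change divided by the square root of its F statistic. It is not an SE that the fit itself reports. Alleles were compared with the library as a block. The script was tested on simulated data. Alternatives were size factors by RLE, DESeq2 1.42.0, no filter, other library sizes, no shallow libraries, each library left out, and the replicate number as a block. A fit of all other comparisons without hybrid T0 replicate 1 was added after seeing the data. Same-numbered libraries did not pair, with correlations of deviations from -0.07 to 0.17 and no comparison with all above 0.1. No 2 replicates agreed within sampling noise (chi-square per degree of freedom at least 31.7). Intervals and floors (3 counts) cover counting error only, and reads have no molecular identifiers.

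The members and lists were chosen with earlier results of these data known. The rows planned for naming were the 6 of highest level in each class and the detected centromeric and telomeric rows. Up to 8 calls in each direction of a comparison, with a mean count of at least 10, were planned too. The text does not name all of the rows of highest level or all of these calls. The one-parent rows, the gene-end classes and the members given library by library were chosen after their values were seen. Positions and sequences are those of the R64 features of the same name in RefSeq.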

Additional observations from a re-analysis of the deposited data

Results flagged for a closer look

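Over 24 values, 22 members and the summed levels of origins and repeats, 96 hybrid groups were tested, and in 11 of them 1 library stood far from the other 3. For normally distributed values chance gives about 1 in 20 groups. These CPM values are not so distributed, and a group with 3 libraries at 0 and 1 above 0 always passes. The 1 in 20 is therefore no measure of chance here. The T0 groups include replicate 1, whose S. paradoxus column cannot be taken as that allele, and a group of 3 is not tested. ARS309 was 1482 CPM in T0 replicate 4, where the others were at most 562. ARS434 was 105 CPM in M1 replicate 4, ARS923 was 327 CPM in M1M2 replicate 2, and YDLWtau1 was 27.8 CPM in M1 replicate 2. ARS404 was 8.51 CPM in M1 replicate 2, 5.41 in M1M2 replicate 3 and 10.55 in M2 replicate 1, each above 3 libraries near or at 0. ARS702 was 6.46 CPM in T0 replicate 2. YHRCdelta10 was 1.44 CPM in T0 replicate 3 and 114 in M1 replicate 1, and YERWdelta11 was 205 CPM in M2 replicate 4.

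The change from T0 to M2 differed between the parents (S. paradoxus minus S. cerevisiae, edgeR, log2) for YERWdelta11 by -14.00 (adjusted p = 0.0306), for ARS702 by -9.11 (adjusted p = 0.0263) and for ARS1427 by -7.68 (adjusted p = 0.0412). These calls were lost in 9, 6 and 9 of the 12 fits that left out 1 library. ARS702 had no S. cerevisiae count at T0, so the size of its difference is not well measured.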

How the results depend on the processing

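No summed level of a class moved by as much as the SD of its group under other scaling or without the member of highest level. Leaving out 1 library, shallow or not, cannot move a group mean that far, so it was no check by that rule. It gave 5628 to 12093 CPM for the origins of S. cerevisiae at T0 and 509 to 1614 CPM for the repeats of S. paradoxus at M1M2. Counts of members called moved too. DESeq2 called 21 in S. cerevisiae at M1, 24 at M1M2 and 16 in S. paradoxus at M1, where edgeR called 5, 9 and 7. For S. paradoxus minus S. cerevisiae it called 22, 24, 22 and 16 at the 4 stages (edgeR 10, 8, 5 and 4) and 7 for the difference in change (edgeR 3). For the hybrid minus its parents it called 4 at T0, 8 at M1 and 4 at M2 (edgeR 1, 3 and 2), and between alleles 7, 18, 15 and 15 (edgeR 0, 1, 6 and 7). Without the shallow libraries there were 12 in S. paradoxus at M1, 8 between species at M1M2, 0 for the hybrid minus its parents at M2, 1 for the difference in change and 4 between alleles at M2. For the hybrid minus its parents at M2, RLE gave 6, and no filter or non-member library sizes gave 1. With no filter 2 alleles were called at M1, and with a library size for each allele 4 at M2. Same-numbered libraries share only a number. With the replicate block the hybrid minus its parents had 0 calls at M1 and 1 at M2. Of the 122 results planned for naming, 23 were then no longer called.

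Without hybrid T0 replicate 1 in the shared fits, an alternative chosen after seeing the data, 1 member was called for the hybrid minus its parents at M2 and 2 between alleles at M1, and the other 15 comparisons that do not use hybrid T0 stayed within 1.5 times their count.

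Leaving out 1 library gave 2 to 6 calls in S. cerevisiae at M1, 2 to 8 at M1M2 and 16 to 41 at M2. In S. paradoxus it gave 2 to 7, 10 to 16 and 12 to 25, and in the hybrid 14 to 29 at M1 and 28 to 49 at M1M2. Between species it gave 4 to 9, 3 to 6, 2 to 7 and 0 to 4. For the hybrid minus its parents it gave 1 to 2, 0 to 7, 2 to 9 and 0 to 1, for the difference in change 0 to 3, and between alleles 0 to 2 at T0, 0 to 1 at M1 and 0 to 4 at M2. The direction reversed for 3 results. ARS446 in S. cerevisiae at M1 was -0.037 without the shallow libraries. Without S. cerevisiae M1M2 replicate 1 the change at M1M2 was -1.63 for ARS421 and -1.796 for ARS1120, where leaving out other libraries gave up to 8.77 and 6.69. The cause was not tested. A count of 0 allows up to 124 CPM in the shallowest library and 0.385 in the deepest.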
